A study of Mus musculus with 16 samples.

Results

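The genes described here are the 31 rows, of 38087 in the count table, whose symbol starts with Dnah, Dnaic, Dnaaf, Tekt or Rsph, leaving out rows with -ps or a final os in the symbol. They are 14 axonemal dynein heavy chain genes (Dnahc in the table, Dnah here), 2 dynein intermediate chain genes (Dnaic1 and Dnaic2), 3 dynein assembly factor genes (Dnaaf1, Dnaaf2 and Dnaaf3), 7 radial spoke genes (Rsph1, Rsph3a, Rsph3b, Rsph4a, Rsph6a, Rsph9 and Rsph10b, the last written Rsph10b2 in the table) and 5 tektin genes (Tekt1, Tekt2, Tekt3, Tekt4 and Tekt5). Total RNA was sequenced from whole ovaries and whole testes of C57BL/6j mice aged 15 to 16 weeks, fed ad libitum and collected 2 to 4 hours after lights on. The 4 groups were ovaries of conventionally raised (CV) females (n = 4), ovaries of germ-free (GF) females (n = 5), testes of CV males (n = 4) and testes of GF males (n = 3). Conventionally raised mice carry a gut microbiota and germ-free mice are kept without microbes. Tissue and sex were therefore a single factor. No label says whether the libraries of a group were separate animals, and the p-values below cover only the spread between libraries, which may be technical.

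The axoneme is the microtubule shaft of motile cilia and of the sperm tail. Its beat is driven by dynein motors, whose very large heavy chains sit in outer and inner arms along the microtubule doublets. Intermediate chains hold the outer arm together, assembly factors fold and load the arms in the cytoplasm before transport, radial spokes carry signals from the central pair of microtubules to the arms, and tektins are filament proteins of the doublet wall. Heavy chain and spoke genes have paralogues: DNAH5, DNAH9 and DNAH11 are outer arm chains of epithelial cilia, and DNAH8 and DNAH17 are their counterparts in sperm. In the female tract, multiciliated cells line the oviduct (Fallopian tube). In the testis, the axoneme is built in spermatids.

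Sequences from before the RefSeq start of 3 pairs of paralogues are printed first, since the results turn on these pairs. In each pair, 1 member had more counts than the other in every ovary. They come from RefSeq (GRCm38.p6), run 5′ to 3′ on the gene's strand, and lie within the 250 bases before the RefSeq start, less any stretch that GENCODE M21 annotates as untranslated. Capitals mark matches, on either strand, to an RFX half-site (GTTGCC or GGCAAC), a forkhead core (TGTTTA or TAAACA) or a cAMP response half-site (TGACGT or ACGTCA). RFX factors and the forkhead factor FOXJ1 are known regulators of motile cilium genes, and CREM, which binds the cAMP response element, is a regulator of spermatid genes. The stretches are chr15:28203516-28203751 (+) for Dnah5, chr17:30626686-30626781 (+) for Dnah8, chr11:66168552-66168801 (-) for Dnah9, chr11:118129250-118129469 (-) for Dnah17, chr11:72361883-72362132 (-) for Tekt1 and chr16:10395491-10395705 (-) for Tekt5.
Dnah5: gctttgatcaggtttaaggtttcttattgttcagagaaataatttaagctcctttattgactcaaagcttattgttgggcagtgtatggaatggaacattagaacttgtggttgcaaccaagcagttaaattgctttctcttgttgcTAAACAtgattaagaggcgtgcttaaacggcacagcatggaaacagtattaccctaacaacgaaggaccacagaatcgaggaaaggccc
Dnah8: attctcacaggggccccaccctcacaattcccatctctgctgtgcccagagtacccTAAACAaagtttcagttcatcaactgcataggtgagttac
Dnah9: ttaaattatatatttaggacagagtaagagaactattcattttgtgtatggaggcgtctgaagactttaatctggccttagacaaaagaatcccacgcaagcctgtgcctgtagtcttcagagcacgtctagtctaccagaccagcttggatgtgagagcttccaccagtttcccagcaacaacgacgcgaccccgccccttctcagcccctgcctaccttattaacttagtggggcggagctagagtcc
Dnah17: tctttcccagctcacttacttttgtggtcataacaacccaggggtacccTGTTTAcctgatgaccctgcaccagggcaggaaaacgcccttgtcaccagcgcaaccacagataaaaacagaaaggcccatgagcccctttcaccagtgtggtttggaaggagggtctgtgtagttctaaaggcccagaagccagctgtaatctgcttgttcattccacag
Tekt1: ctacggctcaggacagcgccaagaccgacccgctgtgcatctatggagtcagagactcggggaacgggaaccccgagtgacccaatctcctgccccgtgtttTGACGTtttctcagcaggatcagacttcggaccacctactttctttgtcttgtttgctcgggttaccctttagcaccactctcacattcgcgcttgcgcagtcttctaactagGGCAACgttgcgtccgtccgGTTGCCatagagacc
Tekt5: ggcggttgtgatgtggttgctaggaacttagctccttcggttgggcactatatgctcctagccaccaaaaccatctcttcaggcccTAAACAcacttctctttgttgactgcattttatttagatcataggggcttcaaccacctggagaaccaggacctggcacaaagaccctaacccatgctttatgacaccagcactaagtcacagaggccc

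The Dnah5, Dnah8, Dnah17 and Tekt5 windows each held 1 forkhead core match, so the match was found in ovary-high and testis-high genes. The Tekt1 window held 2 RFX half-site matches and 1 cAMP response half-site match, and the Dnah9 window held none of the 3 motifs. Of the 31 genes, 26 had a window in the table, and the 250 bases upstream held an RFX half-site in 7 of them (26.9%), a forkhead core in 8 (30.8%) and a cAMP response half-site in 2 (7.69%). Over all 27025 promoters of that length, the shares were 10.5%, 12.0% and 6.56%. These are matches of letters only. The RefSeq start lay 2582 bases from the GENCODE start for Dnah8, 1415 bases for Dnah17 and 560 bases for Tekt1. For these 3 genes the window lay inside the gene as GENCODE annotates it, and may not be the promoter used. Of the other windows counted, the start lay 16975 bases off for Tekt4, 1720 for Dnah12, 538 for Dnah7b and 326 for Rsph3b.

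Each ovary library held 12912251 to 15907297 counts, and each testis library 25880591 to 28266867. The 31 genes took a median of 0.1103% of all counts in CV ovaries, 0.1011% in GF ovaries, 0.8042% in CV testes and 0.876% in GF testes. Levels are given as CPM (counts per 1000000 counts of the library), and as CPM per kb of merged exon where genes are compared with each other. Markers of the labelled tissues were present: the 5 granulosa markers summed to 923 to 1904 CPM over the 9 ovaries, the 5 oocyte markers to 107 to 203 CPM, and the 6 spermatid markers to 11532 to 12528 CPM over the 7 testes and to at most 2.08 CPM in any ovary. Markers of oviduct epithelium were also high in the libraries labelled ovary, and are described with the ovary results. The granulosa markers summed to at most 54.1 CPM in any testis.

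All 31 genes differed between CV testis and CV ovary, 27 of them higher in the testis and 4 higher in the ovary, and the ranges of the groups did not overlap for any of the 31 (90.8% of all genes tested did not overlap). The 4 ovary-high genes were Dnah5, Dnah9, Dnah11 and Rsph4a, all known as components of epithelial cilia. Most genes differ between these tissues: 91.2% of the 21231 genes tested were called between these tissues (edgeR's quasi-likelihood test, Benjamini-Hochberg adjusted p under 0.05), 47.4% higher and 43.8% lower in the testis. The median log2 fold change, testis over ovary, was 4.04 over the 31 genes and 0.11 over all genes tested. Fold changes are from the TMM-scaled fit and are not ratios of the CPM printed beside them. In GF animals the same test gave 27 genes higher and 4 lower in the testis, with a median of 4.23, where 89.2% of all genes were called, 45.7% higher and 43.4% lower; the groups did not overlap for any of the 31, nor for 89.6% of all genes. The CV and GF values share no library. Without scaling beyond the library total, the median of all genes fell to -0.69, and 7777 of them were called higher and 11932 lower. Every one of the 31 genes kept its direction under each scaling tried, and its fold change moved with that shift. In whole-tissue RNA, fewer cells of a type and less RNA per cell cannot be told apart.

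**Figure D1:**
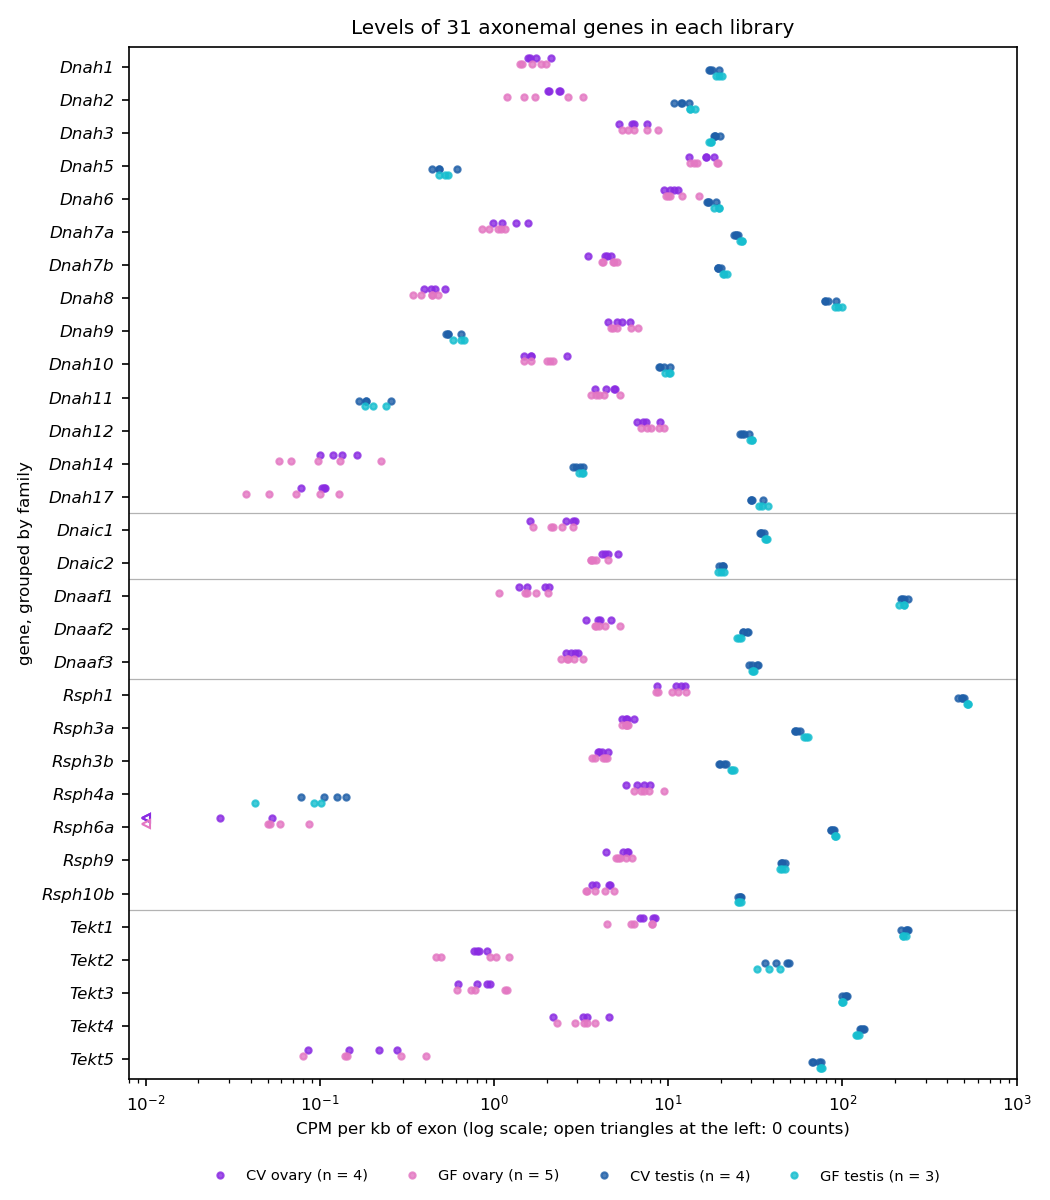
Level of each gene in each of the 16 libraries, in CPM per kb of exon on a log axis, with genes grouped by family and libraries coloured by group; open triangles mark 0 counts. Testis points lie to the right of ovary points for all genes except Dnah5, Dnah9, Dnah11 and Rsph4a, and CV and GF points of a tissue lie together.

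Among outer arm heavy chains, the tissues used opposite members of each pair. Dnah5 (chr15:28203752-28472052, + strand), a heavy chain of the outer arm whose loss causes primary ciliary dyskinesia, stood at 286, 206, 256 and 257 CPM in the CV ovaries and at 301, 209, 219.5, 298 and 227 CPM in the GF ovaries. In the testes it stood at 9.58, 7.57, 7.58 and 6.90 CPM (CV) and 7.53, 8.13 and 8.44 CPM (GF). The ovary and testis ranges were far apart, and the CV fit put Dnah5 18.2-fold lower in the testis (log2 fold change -4.19 ± 0.12 SE, edgeR adjusted p = 5.63e-11). Its counterpart Dnah8 (chr17:30624354-30877365, + strand), the heavy chain of the sperm outer arm, was at 10.6, 11.7, 13.9 and 12.3 CPM in CV ovaries and at 10.2, 9.18, 11.9, 12.7 and 11.7 CPM in GF ovaries. Dnah8 reached 2141, 2120.0, 2203 and 2458 CPM in CV testes and 2647, 2432 and 2516 CPM in GF testes. It had the most counts of all 31 genes in the testis, and was 322-fold higher there in CV mice (log2 fold change 8.33 ± 0.09, edgeR adjusted p = 1.34e-16).

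The second outer arm chain showed a like exchange. Dnah9 (chr11:65831282-66168551, - strand) stood at 95.6, 71.4, 81.1 and 86.4 CPM in CV ovaries and at 97.6, 74.3, 77.0, 106 and 80.6 CPM in GF ovaries, against 10.3, 8.45, 8.61 and 8.67 CPM in CV testes and 9.23, 10.3 and 10.7 CPM in GF testes. Every ovary was above every testis, and Dnah9 was 5.32-fold lower in the CV testis (log2 fold change -2.41 ± 0.10, edgeR adjusted p = 3.03e-11). Dnah11, an outer arm chain found near the base of cilia, followed Dnah9: it ranged from 51.8 to 76.7 CPM over the 9 ovaries and from 2.41 to 3.67 CPM over the 7 testes. Its CV log2 fold change was -3.70 ± 0.13 (edgeR adjusted p = 6.42e-12). Dnah17 (chr11:118021723-118130634, - strand), the sperm counterpart of Dnah9, was at 1.72, 1.25, 1.70 and 1.65 CPM in CV ovaries and at 0.817, 0.602, 2.08, 1.18 and 1.60 CPM in GF ovaries, and at 483, 484, 483 and 563 CPM in CV testes and 601, 534 and 558 CPM in GF testes. These ovary levels are 8 to 29 counts per library. The CV log2 fold change of Dnah17 was 9.12 ± 0.10 (edgeR adjusted p = 1.21e-16).

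All 9 inner arm heavy chains were higher in the testis, by widely different amounts. Dnah6 rose least in the testis, with a CV log2 fold change of 1.54 ± 0.06 (edgeR adjusted p = 3.29e-11), from 125 to 150.2 CPM in CV ovaries to 221 to 249 CPM in CV testes. Dnah3 (2.38 ± 0.09) and Dnah12 (2.65 ± 0.09) came next. Dnah2 and Dnah10, which form the 2-headed inner arm, had nearly equal log2 fold changes of 3.24 ± 0.07 and 3.15 ± 0.18. Dnah7a and Dnah7b, 2 mouse copies of the DNAH7 gene, differed from each other: Dnah7b ranged from 68.8 to 93.3 CPM in CV ovaries and from 383 to 401 CPM in CV testes, and Dnah7a from 12.5 to 19.8 CPM and from 302 to 321 CPM. The CV log2 fold change was thus 3.01 ± 0.08 for Dnah7b and 5.10 ± 0.12 for Dnah7a. Of their transcripts, 17.1% of the 100-base windows of Dnah7b and 13.5% of those of Dnah7a also occurred in Dnah7c, so that reads could be shared between the copies. Dnah1 had a log2 fold change of 4.16 ± 0.09. Dnah14 had the largest of the inner arm chains, 5.34 ± 0.11, from 1.63 to 2.64 CPM in CV ovaries to 45.8 to 52.3 CPM in CV testes.

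Divided by exon length, the makeup of the heavy chain pool changed between tissues. Dnah5 made up 25.8% ± 0.68 (SD, n = 4) of the summed heavy chain level in CV ovaries and 0.192% ± 0.034 (SD, n = 4) in CV testes. Dnah8 made up 0.737% ± 0.13 and 31.3% ± 0.55 in the same groups. Summed as a pair, Dnah5 and Dnah8 took 26.6% ± 0.66 in CV ovaries and 31.5% ± 0.53 in CV testes, and the trio Dnah9, Dnah11 and Dnah17 took 15.8% ± 0.70 and 12.0% ± 0.34. Dnah2 with Dnah10 took 6.53% ± 0.19 and 8.03% ± 0.15, and the remaining 7 heavy chains took 51.1% ± 0.94 and 48.4% ± 0.94. The members that filled the 2 outer arm classes were thus exchanged between the tissues. How alike the class shares were depended on the length used: with the longest transcript of each gene, Dnah5 with Dnah8 took 24.7% ± 0.57 in CV ovaries and 39.6% ± 0.62 in CV testes, since Dnah8 has 26820 bases of merged exon. These shares are a description, with no test.

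**Figure D2:**
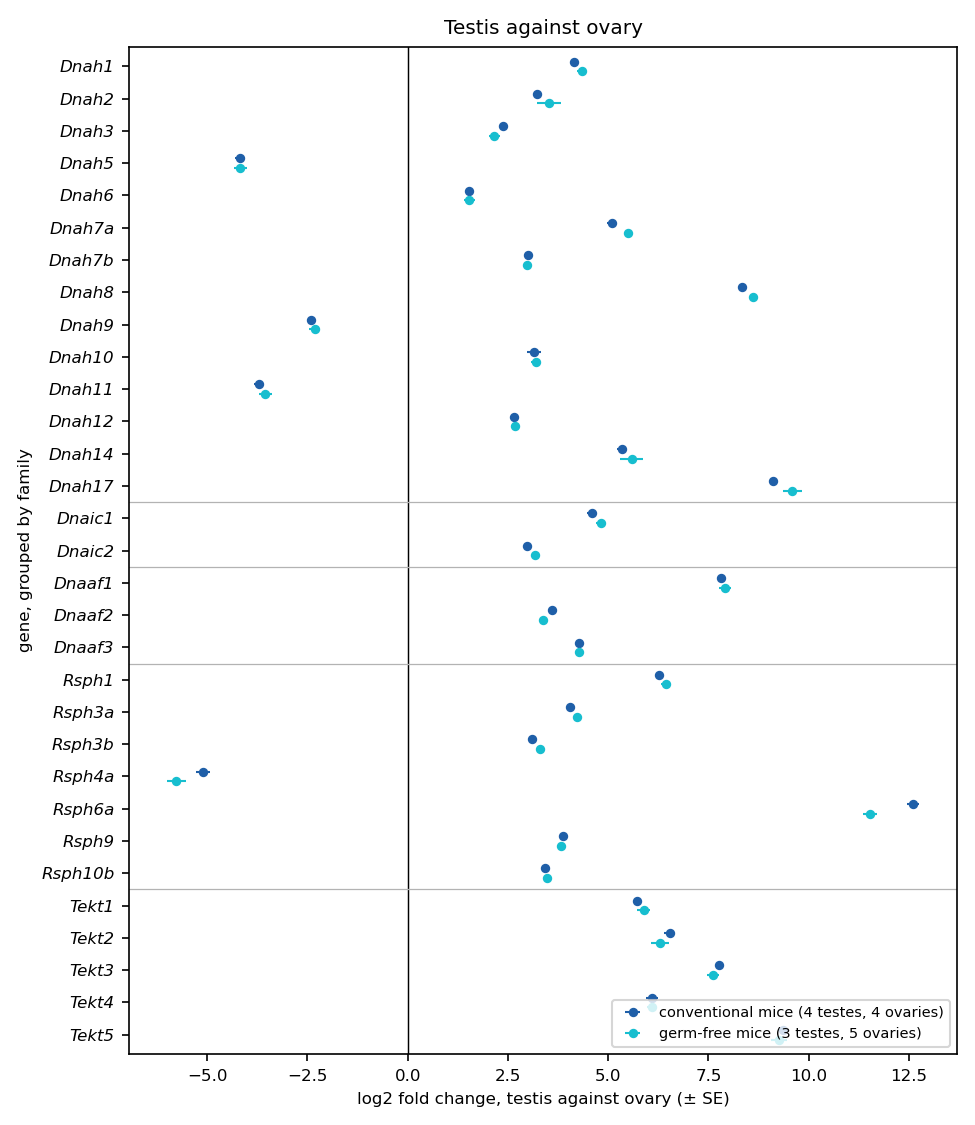
Log2 fold change, testis over ovary, of each gene in CV mice and in GF mice, with standard errors of the fit; the vertical line marks no change. The 4 genes to the left of the line are Dnah5, Dnah9, Dnah11 and Rsph4a, and Rsph6a lies farthest to the right at 12.61 in CV mice.

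Both outer arm intermediate chain genes were higher in the testis. Dnaic1 ranged from 4.49 to 8.05 CPM in CV ovaries and from 93.9 to 98.5 CPM in CV testes, a log2 fold change of 4.60 ± 0.12. Dnaic2 ranged from 19.1 to 23.4 CPM and from 89.4 to 94.5 CPM, a log2 fold change of 2.97 ± 0.07. In CPM they were nearly level in the testis, while in the ovary Dnaic2 was above Dnaic1 in every library; the merged exons of Dnaic2 are 4568 bases and those of Dnaic1 2782. The 3 assembly factor genes were also all higher in the testis. Dnaaf1, which encodes a leucine-rich repeat protein needed to preassemble the arms, went from 3.90 to 5.82 CPM in CV ovaries to 612 to 670.2 CPM in CV testes (log2 fold change 7.82 ± 0.10, edgeR adjusted p = 6.79e-16). Dnaaf2 and Dnaaf3 had smaller log2 fold changes of 3.59 ± 0.08 and 4.26 ± 0.07.

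The spoke head genes held the widest contrast. Rsph4a (chr10:33905111-33916021, + strand), a radial spoke head gene of epithelial cilia, stood at 28.8, 20.7, 26.3 and 24.1 CPM in CV ovaries and at 28.2, 25.3, 26.6, 34.5 and 23.0 CPM in GF ovaries. In testes it stood at 0.386, 0.457, 0.515 and 0.283 CPM (CV) and 0.154, 0.368 and 0.338 CPM (GF), which are 4 to 14 counts per library. Its CV log2 fold change was -5.11 ± 0.18 (edgeR adjusted p = 6.28e-12), and the ratio of pooled CPM was 61.0 (95% counting interval 45.2 to 84.4). Rsph6a (chr7:19054690-19074447, + strand), its paralogue in the sperm tail, was at 215, 219.5, 215 and 223 CPM in CV testes and at 226, 225 and 229 CPM in GF testes. In ovaries Rsph6a had 2, 1, 0 and 0 counts (CV) and 2, 0, 3, 2 and 2 counts (GF). Over the CV groups this is 23473 counts against 3, a ratio of CPM of 4155 with a counting interval of 1422 to 20150.4. The fitted log2 fold change of 12.61 for Rsph6a depends on the count that the fit adds to such low values.

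The other spoke genes were present in both tissues and higher in the testis. Rsph1, a spoke head protein, ranged from 11.8 to 17.2 CPM in CV ovaries and from 633 to 684 CPM in CV testes (log2 fold change 6.26 ± 0.10). Rsph9, its partner in the head, rose less (3.87 ± 0.08), from 7.00 to 9.45 CPM to 70.6 to 75.2 CPM. Rsph3a and Rsph3b, mouse copies of a spoke stalk gene, had log2 fold changes of 4.04 ± 0.05 and 3.10 ± 0.07, and Rsph10b of 3.43 ± 0.08. Rsph3a and Rsph3b share sequence: 60.6% of the 100-base windows of the Rsph3a transcript also occurred in Rsph3b and 64.8% the other way, so the split of reads between them is uncertain.

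All 5 tektin genes were higher in the testis. Tekt1 ranged from 11.1 to 13.7 CPM in CV ovaries and from 354 to 386 CPM in CV testes (log2 fold change 5.72 ± 0.07, edgeR adjusted p = 2.79e-16). Tekt4 (6.09 ± 0.15), Tekt2 (6.53 ± 0.14) and Tekt3 (7.77 ± 0.08) followed. Tekt5 (chr16:10357948-10395490, - strand), a tektin of sperm, stood at 0.264, 0.396, 0.155 and 0.501 CPM in CV ovaries, or 2 to 7 counts, and at 123, 136, 133 and 122 CPM in CV testes. Its CV log2 fold change was 9.36 ± 0.13 (edgeR adjusted p = 6.84e-16), or 657-fold. The ratio of pooled CPM, which has no TMM scaling, was 385 (95% counting interval 247 to 640.1). In GF animals Tekt5 had 2 to 10 counts per ovary and 133 to 139 CPM in the testis.

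Within 4 pairs of paralogues, the ratio of 1 member to the other was compared per library, which needs no scaling between tissues. The log2 ratio of Dnah5 to Dnah8 (per kb of exon, 0.5 added to each count) was 5.14 ± 0.28 (SD, n = 4) in CV ovaries and -7.37 ± 0.28 (SD, n = 4) in CV testes. That of Dnah9 to Dnah17 was 5.71 ± 0.11 and -5.79 ± 0.19, and that of Rsph4a to Rsph6a 7.94 ± 1.06 and -9.57 ± 0.38. The log2 ratio of Tekt1 to Tekt5 was 5.35 ± 0.67 in CV ovaries and 1.70 ± 0.08 in CV testes, so Tekt1 exceeded Tekt5 in both tissues, and this pair did not exchange rank. GF values were similar, at 5.26 ± 0.27 and -7.52 ± 0.14 for Dnah5 to Dnah8 and at 6.21 ± 0.76 and -5.79 ± 0.19 for Dnah9 to Dnah17. All 8 comparisons, 4 pairs in CV and in GF mice, had groups that did not overlap and an adjusted p of 0.0357 (exact permutation test, two-sided, adjusted over 8). The raw p was 0.0286 for 4 against 4 libraries and 0.0357 for 5 against 3, the smallest these designs can give.

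**Figure D3:**
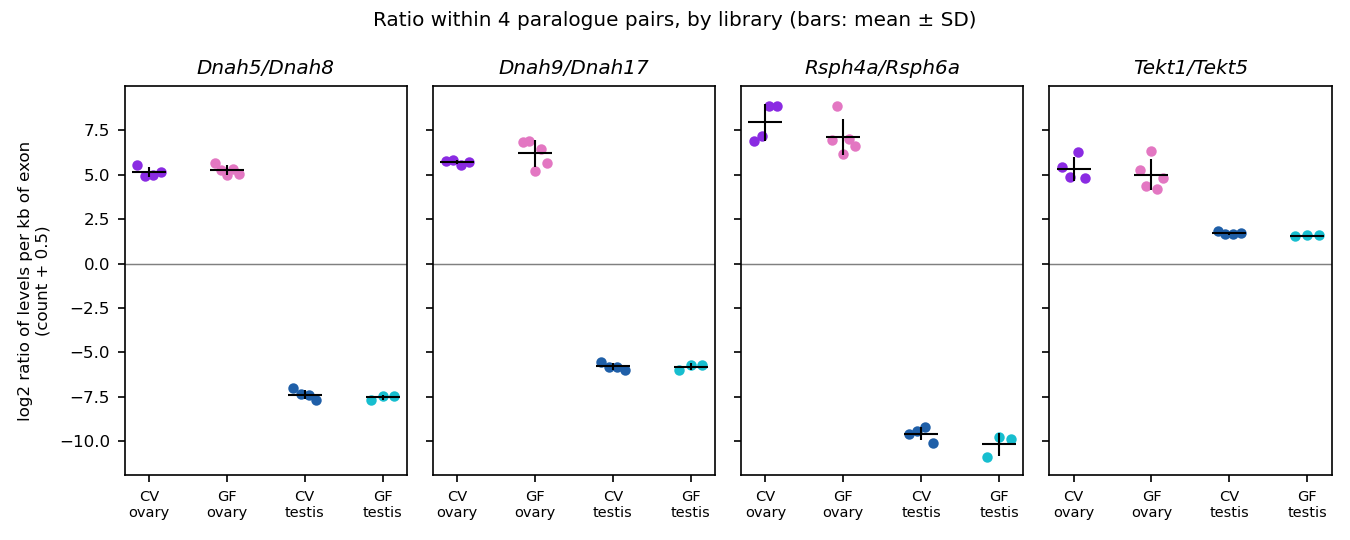
Log2 ratio of levels within 4 pairs of paralogues in each library, by group, with the group mean and SD as black bars. The Dnah5/Dnah8, Dnah9/Dnah17 and Rsph4a/Rsph6a ratios lie above 0 in every ovary and below 0 in every testis, and Tekt1/Tekt5 lies above 0 in all 16 libraries.

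The order of levels per kb differed between the tissues. Over the 9 ovaries the highest means were those of Dnah5 at 16.1 CPM per kb (range 13.2 to 19.3), Dnah6 (range 9.46 to 14.9), Rsph1 at 10.6 (8.47 to 12.6), Dnah12 at 7.88 (6.64 to 9.39) and Rsph4a at 7.23 (5.68 to 9.44). The ranges of neighbours in this order overlapped, so only distant places are told apart. Over the 7 testes the order began with Rsph1 at 499 CPM per kb (462 to 526), Tekt1 at 229 (218 to 238), Dnaaf1 at 223 (211 to 238), Tekt4 at 126 (120.3 to 132) and Tekt3 at 102 (99.3 to 106). Tekt1 and Dnaaf1 overlapped, and the other neighbours among these 5 did not. Heavy chains thus filled 3 of the 5 highest places in the ovary and 0 in the testis, a count that depended on length in both. With the longest transcript as length, the places of Rsph1 and Dnah6 in the ovary changed, and Rsph9 and Tekt1 replaced Dnah12 and Rsph4a among the first 5, while in the testis Dnah8 replaced Tekt3. At the low end, Rsph6a, Dnah17, Dnah14 and Tekt5 were at most 0.408 CPM per kb in any ovary, and Rsph4a, Dnah11, Dnah5 and Dnah9 were at most 0.672 CPM per kb in any testis.

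Other axonemal genes, taken from lists chosen with results of these data known, moved with the members. Between CV testis and ovary, 18 of 19 dynein assembly and docking genes outside the 31 were higher in the testis, with a median log2 fold change of 3.68, among them Ccdc63 (10.50 ± 0.12), an outer arm docking gene, and Zmynd10 (5.75 ± 0.09), an assembly factor. All 11 nexin-dynein regulatory complex and ruler genes rose (median 3.84), with Ccdc39 at 4.22 ± 0.06, as did 13 of 14 central pair genes (median 4.04), with Spag17 at 5.82 ± 0.05, and 14 of 15 microtubule inner and doublet protein genes (median 4.55). Of 18 light and intermediate chains outside the 31, 14 rose and 4 fell (median 2.77). The 12 sperm tail fibre and sheath genes rose most, with a median of 13.79 and Akap4, a fibrous sheath gene, at 15.66 ± 0.13. Cytoplasmic and ciliary transport dynein genes, which carry cargo rather than bend the axoneme, differed least, with 5 of 7 higher, 2 lower and a median of 0.86. Of the 10 ciliation transcription factors tested, 6 were higher and 4 lower in the testis. Rfx2 rose by 6.09 ± 0.06 and Foxj1 by 1.41 ± 0.07 on the log2 scale.

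The ovary libraries carried markers of oviduct epithelium at high levels. Ovgp1, oviductin, a secretory product of the oviduct, stood at 3326, 2465, 3226 and 3107 CPM in CV ovaries and at 3718, 2609, 2889, 2388 and 1724 CPM in GF ovaries, against 16.0 to 18.8 CPM in the testes other than CV1, where it was highest (CV log2 fold change, testis over ovary, -6.46 ± 0.21). Pax8, a transcription factor of Müllerian epithelium, stood at 31.4 to 54.2 CPM in the ovaries and at 0.0750 to 0.384 CPM in the testes. The 7 oviduct secretory markers summed to 3025 to 3757 CPM in CV ovaries and to 2079 to 4038 CPM in GF ovaries, with none at 0. Ovgp1 alone made up most of each sum. In the testes the same 7 summed to 89.7 to 101 CPM (CV) and 86.3 to 87.1 CPM (GF), also with none at 0. Of the 7, 6 were called lower and 0 higher in the testis in CV mice. In GF mice, 5 were called lower and 1 higher. The 9 multiciliated markers, 1 of which (Rsph1) is among the 31 genes, summed to 189 to 258 CPM in CV ovaries and to 202 to 285 CPM in GF ovaries, with none at 0. In the testes the same 9 summed higher, to 1153 to 1205 CPM (CV) and 1197 to 1231 CPM (GF). Between CV testis and CV ovary, 5 of them were called higher and 4 lower in the testis. As a list they are thus not particular to the ovary libraries. The 5 ovarian surface epithelium markers summed to 225 to 408 CPM in CV ovaries and to 209 to 303 CPM in GF ovaries. The part of oviduct tissue in the ovary values was not tested.

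Foxj1, the forkhead factor of motile ciliated cells, ranged from 50.1 to 77.9 CPM over the 9 ovaries. Its relation with 4 of the genes was computed across these libraries, as was that with Ovgp1, 8 relations in all, each tested by an exact permutation of the pairing and adjusted over the 8. The permutation treats the 9 libraries as exchangeable and takes no account of the shared deviation of same-numbered CV and GF ovaries (r of 0.23 to 0.41). For Tekt1 with Foxj1, Pearson's r was 0.77 (exact permutation p = 0.00552, adjusted 0.0441) and Spearman's rho = 0.80 (exact permutation p = 0.0138, adjusted 0.0856). Leaving out the 2 libraries farthest from the median of Foxj1, GF4 and GF5, gave r = 0.76. Rsph1 gave r = 0.72 (exact permutation, adjusted p = 0.065), Dnah9 0.68 and Dnah5 0.68 (both exact permutation, adjusted p = 0.077), none of which passed. Without GF4 and GF5, r was 0.77 for Rsph1, 0.50 for Dnah9 and 0.58 for Dnah5. With Ovgp1, Rsph1 gave r = 0.77 (exact permutation, adjusted p = 0.0643), and Tekt1, Dnah5 and Dnah9 gave 0.58, 0.48 and 0.30. All 8 coefficients were positive. The Tekt1 relation with Foxj1 did not keep its call when any of the 4 CV libraries, GF2 or GF5 was left out (Tekt1 against Foxj1 across ovaries, r between 0.70 and 0.81 in these 6 cases). CV and GF libraries each number fewer than 6, so no coefficient was computed within them.

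**Figure D4:**
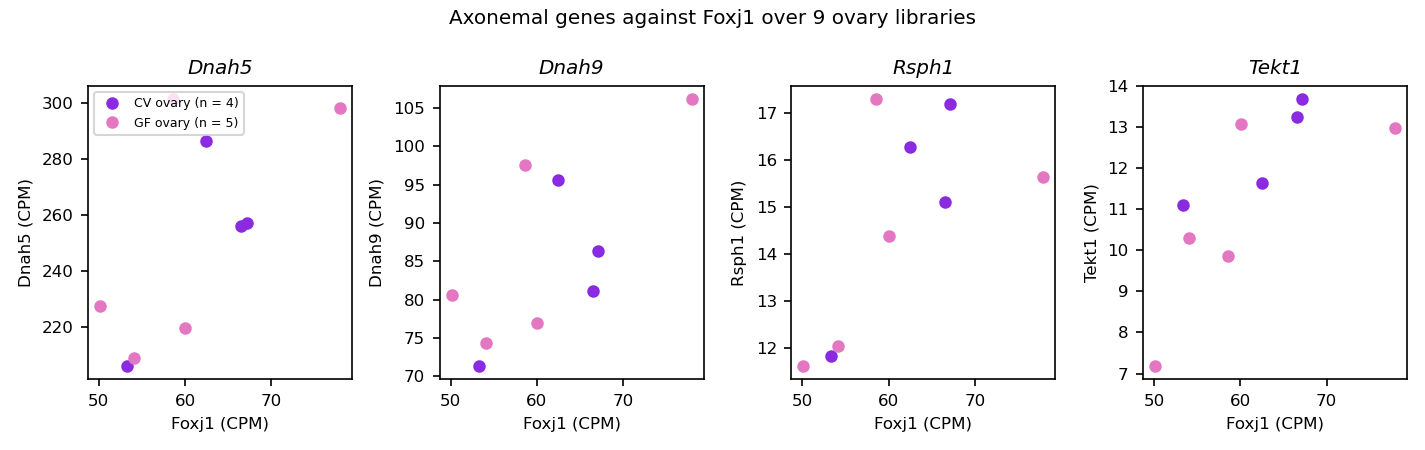
CPM of Dnah5, Dnah9, Rsph1 and Tekt1 against CPM of Foxj1 in the 9 ovary libraries, coloured by microbiota. The library with the most Foxj1, at 77.9 CPM, also had the most Dnah9, at 106 CPM, and the library with the least, at 50.1 CPM, had the least Tekt1, at 7.19 CPM. The most Dnah5, at 301 CPM, was in another library, GF1, at 58.6 CPM of Foxj1.

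In the ovary, no axonemal gene was called between germ-free and conventional mice. Of the 31 genes, 29 passed the filter on low counts (Tekt5 and Rsph6a did not), 0 were called by edgeR's quasi-likelihood test, and 1 had an unadjusted p under 0.05 (1172 of all genes did), against 0.177% of all 18095 genes called (0.111% higher and 0.0663% lower). Groups did not overlap for 0 of the 29, against 2.68% of all genes. DESeq2 and limma-voom also called 0. The median log2 fold change, GF over CV, was -0.04 over the 29 genes and 0.01 over all genes. The smallest p was that of Dnaic2, at 17.7, 16.8, 16.4, 20.6 and 16.4 CPM in GF ovaries and 23.4, 19.9, 20.5 and 19.1 CPM in CV ovaries (log2 fold change -0.24 ± 0.10, edgeR adjusted p = 0.719). Its 2 groups overlapped through the GF4 library. Dnah7a had a log2 fold change of -0.30 ± 0.14 and Dnah7b of 0.13 ± 0.09, with adjusted p of 0.781 and 0.862 in the same edgeR test. Dnah5 (-0.01 ± 0.13) and Dnah9 (0.05 ± 0.12) had nearly equal group means. The standard errors of the 29 genes ran from 0.07 to 0.37 with a median of 0.13, so that changes of the size called in the testis lay within 2 standard errors for most genes in the ovary. Foxj1 (-0.06 ± 0.12), Ovgp1 (-0.19 ± 0.19) and Pax8 (-0.37 ± 0.14) were not called either, with edgeR adjusted p of 0.956, 0.901 and 0.683. All 7 oviduct secretory markers had a lower mean level in GF ovaries in the fit (median log2 fold change -0.39, 0 called), and so had all 5 oocyte markers (median -0.29, 0 called). With the replicate number as a block, 1 oviduct marker was called. The part of these in the ovary values was not tested. No gene of the 8 axonemal and regulator lists was called in the ovary.

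In the testis, 9 of the 31 genes were called between germ-free and conventional mice, 7 higher and 2 lower in GF mice, where 8.08% of all 20269 genes were called, 3.67% higher and 4.41% lower. An unadjusted p under 0.05 was found for 15 of the 31 and for 3939 of the 20269. All changes were small, between -0.13 and 0.18 on the log2 scale for the 9 genes. Groups did not overlap for 12 of the 31, against 17% of all genes tested. The median log2 fold change was 0.07 over the 31 genes and 0.00 over all genes. It was 0.12 over the 14 heavy chains, 0.05 over the 7 spoke genes and -0.05 over the 5 tektins.

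The spoke genes Rsph3a and Rsph3b changed most among those called. Rsph3a stood at 161, 171, 162 and 166 CPM in CV testes and at 182, 186 and 191 CPM in GF testes, with a log2 fold change of 0.17 ± 0.03 (edgeR adjusted p = 0.000202). Rsph3b stood at 60.8, 61.7, 66.6 and 65.0 CPM and at 72.4, 70.9 and 73.9 CPM (0.18 ± 0.04, edgeR adjusted p = 0.0024). All GF testes were above all CV testes for both genes, whose reads may be shared as stated above. Rsph1 was at 662, 666, 633 and 684 CPM in CV testes and 719.6, 709 and 722 CPM in GF testes (0.11 ± 0.03, edgeR adjusted p = 0.00507).

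Of the inner arm heavy chains, 4 rose and 1 fell. Dnah12 stood at 320.1, 310.2, 326 and 347 CPM in CV testes and at 365, 363 and 353 CPM in GF testes (log2 fold change 0.14 ± 0.03, edgeR adjusted p = 0.00293). Dnah7b (0.11 ± 0.03), Dnah7a (0.10 ± 0.03) and Dnah6 (0.13 ± 0.04) rose too, with edgeR adjusted p of 0.00755, 0.0154 and 0.0321. Reads of Dnah7a and Dnah7b may be shared with other copies, as stated above. For Dnah6 the groups overlapped, since the CV4 library at 249 CPM was above GF2 at 242 CPM. Dnah3 fell, from 267, 266, 283 and 262 CPM in CV testes to 245, 253 and 253 CPM in GF testes (-0.11 ± 0.03, edgeR adjusted p = 0.0162), with no overlap. Lyrm1, on the opposite strand, overlaps 10.5% of the exons of Dnah3, and whether counting used strand is not given in the sources used here. Dnaaf2 fell from 96.1, 90.4, 91.1 and 97.6 CPM to 84.4, 88.4 and 86.0 CPM (-0.13 ± 0.04, edgeR adjusted p = 0.0217). A share of 36.9% of the 100-base windows of Dnaaf2 also lay in another annotated gene, and 9330151L19Rik, on the opposite strand, overlaps 32.7% of its exons. Dnah8 (0.18 ± 0.07) and Dnah2 (0.18 ± 0.07) had larger log2 fold changes than the called heavy chains and were not called (edgeR adjusted p = 0.216 and 0.208). The CV4 library of Dnah8, at 2458 CPM, lay among the GF libraries at 2432 to 2647 CPM.

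The CV4 testis library stood with the GF libraries for the heavy chains as a class. The median deviation of the 14 heavy chains from their mean over the 7 testes, on the log2(CPM + 0.5) scale, was -0.08, -0.11 and -0.07 in CV1, CV2 and CV3, 0.04 in CV4, and 0.09, 0.04 and 0.08 in GF1, GF2 and GF3. For the 791 genes with over 12 kb of exon, the same median was 0.03 in CV4, the highest of the 7 libraries, between -0.03 and -0.01 in the other CV testes, and between 0.00 and 0.01 in the GF testes. Heavy chain genes have 12009 to 26820 bases of exon and the other families 1372 to 4568, and the part of length in the heavy chain values was not tested beyond the correction named here. With an offset for exon length, chosen after seeing the data, 12 of the 31 were called, 10 higher and 2 lower. Of all 19808 genes tested with that offset, 1698 were called. Without CV4, 15 of the 31 were called, 12 higher and 3 lower, Dnah8 among them, and 2084 of all 20112 genes. The Dnah8 log2 fold change, germ-free against conventional testis, was then 0.23 (edgeR adjusted p = 1.118e-05). Leaving out GF3 gave the fewest of the 31, 5, where 1140 of all 20530 genes were called. A fit of all 16 libraries, in which the testes share the wider spread of the ovaries, called 0 of the 31, and 122 of all genes in place of 1638.

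**Figure D5:**
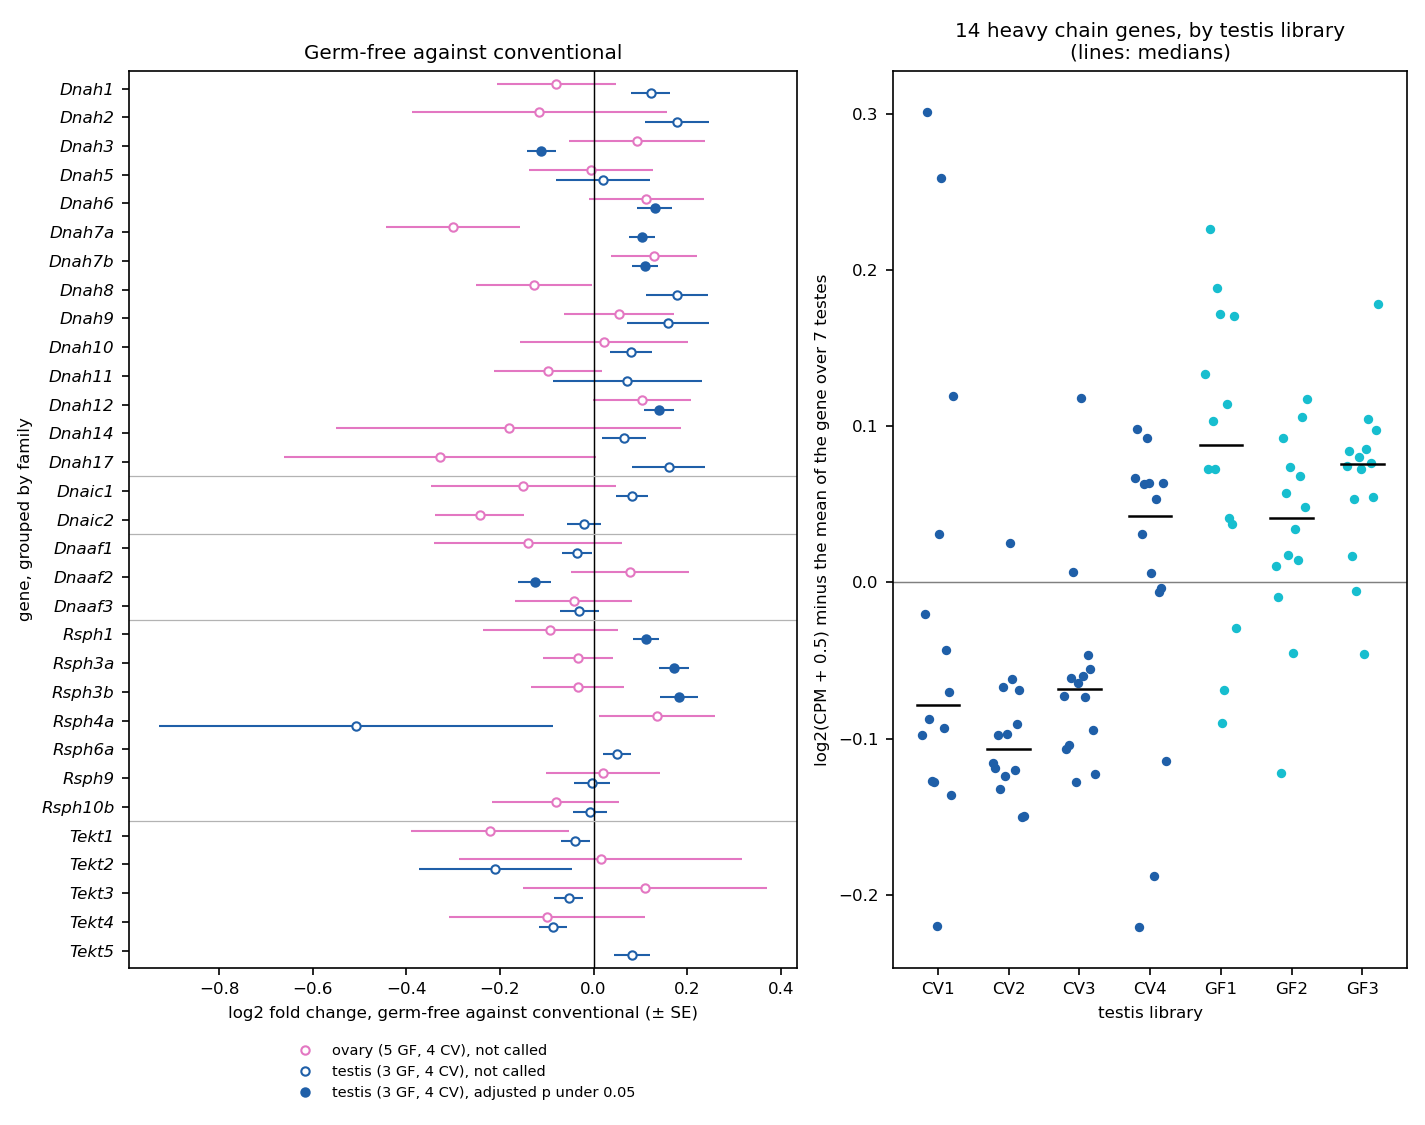
Left, log2 fold change, GF over CV, of each gene in the ovary and in the testis with standard errors, filled where called; right, deviation of each of the 14 heavy chain genes from its mean over the 7 testes, by library, with medians as lines. The testis error bars are narrower than those of the ovary for nearly all genes, and the heavy chain median of CV4 lies above 0 with those of the GF testes.

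Other genes of the testis moved beside these. Foxj1 fell in GF testes, from 94.1, 93.5, 92.1 and 97.7 CPM to 80.6, 73.9 and 81.8 CPM, with no overlap (log2 fold change -0.27 ± 0.04, edgeR adjusted p = 5.18e-06), as did Rfx4 (-0.13 ± 0.03) and Rfx1 (-0.12 ± 0.04). No ciliation factor rose, of 9 tested. Of 12 sperm tail fibre and sheath genes, 3 fell (Odf1, Cabyr and Oaz3, from -0.15 to -0.09) and 0 rose. Of 15 microtubule inner and doublet protein genes, 3 fell and 0 rose, and 1 of 14 central pair genes rose (Cfap46, 0.17 ± 0.05). Other lists went both ways. Of 17 light and intermediate chains outside the 31, 2 rose and 1 fell. Of 19 assembly and docking genes 1 rose and 1 fell, and of 11 nexin-dynein genes 1 rose and 1 fell. Of 7 multiciliated markers, 1 rose, which was Rsph1 and so 1 of the 31 genes, and 2 fell, Foxj1 among them. Over all genes, 3.67% were called higher and 4.41% lower. These counts were small and moved with the settings tried, from 0 to 6 for the central pair, from 0 to 5 for the sperm tail list and from 0 to 4 for the ciliation factors. Among germ cell markers, 2 of 5 spermatocyte markers rose (Piwil1, 0.26 ± 0.03, and Spo11, 0.14 ± 0.04). The other 3 were not called and had log2 fold changes below 0, with a median over the 5 of -0.0037, and the 5 summed to 948 to 987 CPM in CV testes and 1011 to 1059 CPM in GF testes. Of 6 spermatid markers, 2 fell (Acrv1, -0.16 ± 0.03, and Spaca1, -0.17 ± 0.04), and the 6 summed to 11692 to 12528 CPM and 11532 to 12085 CPM. Calls ranged from 0 to 2 of the spermatocyte markers and from 0 to 4 of the spermatid markers over the settings. None of the 5 Sertoli or 4 Leydig markers was called. The part of a different mix of germ cell stages in the changes of the 9 genes was not tested.

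The difference between the testis and the ovary response to germ-free status was not shown for any of the 31 genes. The interaction called 0 of them in edgeR's quasi-likelihood test, where 0.132% of 21977 genes were called (0.0728% higher and 0.0592% lower), and 3 had an unadjusted p under 0.05, as had 1524 of the 21977. These were Rsph3a (0.19 ± 0.07), Dnah7a (0.39 ± 0.15) and Dnah8 (0.29 ± 0.13), as the testis log2 fold change, GF over CV, minus the ovary one, with edgeR adjusted p of 0.579, 0.601 and 0.676. DESeq2 and limma-voom also called 0. The standard errors of the interaction had a median of 0.17, larger than most of the testis changes themselves.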

How the data were processed

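Per the labels' protocols, libraries were made from total RNA with a stranded kit after ribosomal depletion and sequenced as paired reads. The authors deposited raw counts per gene in 1 table; all 16 columns matched a sample. The submitters' processing notes list STAR 2.4.0i and mm10. For the counter, its annotation and strand, the entry is: not given in the sources used here. Total counts ran from 12912251 to 15907297 (ovary) and from 25880591 to 28266867 (testis). Counting intervals cover counting error only and leave out the TMM scaling, so a fitted fold change can lie outside them.

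Counts were tested per comparison with edgeR 4.0.16 (R 4.3.3; TMM, filterByExpr, robust quasi-likelihood F test), with Benjamini-Hochberg adjustment over all genes tested and calls at an adjusted p under 0.05. Alternatives were RLE or no scaling, no filter, DESeq2 1.42.0, limma-voom 3.58.1, a replicate block, all 16 libraries in 1 fit, a test of changes above 2-fold, an exon length offset and leaving out each library. Levels are CPM of raw totals, per kb of merged GENCODE M21 exon (GRCm38). Paralogue ratios and correlations were tested by exact permutation in SciPy 1.17.1. All 31 genes had an M21 entry. The fits were tested on simulated data.

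Members and lists were chosen with earlier results of these data known. Library values are given for genes called in a germ-free comparison, the 3 of smallest p in each tissue, the 5 highest per kb in each tissue, the 4 pairs and ovary-high genes; up to 4 genes per other list are named by smallest p, and Foxj1, Ovgp1 and Pax8 always. Same-numbered CV and GF ovaries deviated together (r of 0.23 to 0.41 in 4 pairs), though only 2 of 4 CV ovaries correlated best with their own number. Same-numbered testes did not (r of -0.03 to 0.09). The main fits and the permutation tests were not paired by these numbers, which entered only as the replicate block among the alternatives. Replicates differed by more than counting noise (chi-square per degree of freedom of 2.37 or more in 25 pairs).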

Additional observations from a re-analysis of the deposited data

Results flagged for a closer look

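Each gene was checked for a library apart from the rest of its group, in groups of 4 or 5 libraries, 102 groups of 34 genes in all; chance flags about 1 in 20 such groups, and 4 stood apart. Dnah10 was at 42.2 CPM in the CV1 ovary (639 counts), where the other CV ovaries ranged from 23.9 to 26.3 CPM. Dnah17 was at 1.25 CPM in the CV2 ovary, or 19 counts, below the other CV ovaries at 1.65 to 1.72 CPM. Dnah17 was at 563 CPM in the CV4 testis, where the other CV testes were at 483 to 484 CPM. Dnah9 was at 10.3 CPM in the CV1 testis (266 counts), above the other CV testes at 8.45 to 8.67 CPM.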

How the results depend on the processing

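The tissue calls were stable: all 31 genes were called, 27 higher and 4 lower in the testis, under each of 17 alternatives in CV and in GF mice. The germ-free comparison of the ovary and the interaction called 0 of the 31 under every alternative run, the replicate block included (also with the exon length offset in the ovary). In the germ-free comparison of the testis, main count 9, the replicate block gave 14, the fit of all 16 libraries gave 0, and leaving out 1 library gave from 5 to 15. Calls over all genes moved as well, from 1638 in the main fit to 1692 with the block and 122 in the fit of all 16 libraries. Without 1 library they ranged from 996 to 2084. The block uses only the 3 shared numbers and so leaves out CV4; the testis numbers share no more than a number (no same-numbered pair correlated above 0.09, and 1 of 3 CV libraries correlated best with its own). The ovary block changed no call among the 31, while over all genes it called 91 (34 higher, 57 lower) in place of 32 (20 higher, 12 lower). The paralogue comparisons past the threshold ranged from 0 to 0 of 8 without 1 library, since adjusted p then cannot fall below 0.05 by construction (smallest p 0.0571 for 3 against 4). The marker relations past the threshold, 1 of 8, ranged from 0 to 3 without 1 library. With the longest transcript as length, 3 of the 5 highest ovary genes remained among the first 5. In 3 results, none called, leaving out 1 library changed the sign: Foxj1 in the ovary (from -0.1667 to 0.0028, the latter without GF5), Ovgp1 in the testis (from -0.2286 to 0.0455, without CV1) and the Tekt1 relation with Ovgp1 (r from -0.1416, without GF5, to 0.8218). Genes at under 30 counts in every ovary (Rsph6a, Tekt5, Dnah17 and Tekt3) have imprecise fold changes.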

Other observations

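Within the ovary, the counts behind single genes set how closely they can be followed: Dnah5 had 2775 to 4795 counts per library and Dnah6 1759 to 2679, while Tekt2 had 12 to 36 and Tekt3 14 to 28. Dnah2 varied most between GF ovaries among the better counted genes, from 278 to 656 counts (17.8 to 48.4 CPM), while CV ovaries lay between 30.6 and 35.9 CPM. In the testis, Tekt2 was the tektin with the widest spread, at 68.1, 78.9, 91.0 and 93.9 CPM in CV and 72.1, 61.6 and 82.7 CPM in GF libraries. Summed per kb, radial spoke genes reached 693 to 733 CPM per kb in CV testes and 765 to 775 in GF testes, and heavy chains 255 to 285 and 284 to 299. Rsph1 alone averaged 482 CPM per kb in CV testes and 523 in GF testes, of mean spoke sums of 715 and 769. Of the 7 spoke genes, 3 were called higher in GF testes and 0 lower. The spoke and heavy chain sums were chosen after their values were seen, and neither was tested.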
